A study of Chlorella sp. HS2 with 12 samples.

Results

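Nitrate reductase catalyses the first step of nitrate assimilation, the transfer of electrons from NADH or NADPH to nitrate, which gives nitrite. The enzyme carries a molybdenum cofactor, a heme in a cytochrome b5 domain and FAD. In algae and plants the nitrite passes into the chloroplast, where ferredoxin-nitrite reductase, an enzyme with a siroheme group, reduces it to ammonium, and glutamine synthetase and glutamate synthase bind the ammonium into amino acids. The green alga Chlamydomonas reinhardtii holds several of these genes side by side in its genome, and nitrate and ammonium in the medium are known to set their transcript levels there.

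The nitrate reductase gene described here is the assembled gene TRINITY_DN580_c1_g1 of the green alga Chlorella sp. HS2, 1 of 57640 genes in the count matrix. It was chosen by its name together with its levels in these same libraries, so its levels and fold changes are given as a description, with no test. The series comprised 4 groups of 3 libraries each: cultures in marine medium, which is inorganic medium with 3% added sea salt, in exponential phase at day 4; cultures in freshwater inorganic medium in exponential phase at day 4; and cultures in the marine and in the freshwater medium in stationary phase at day 6. All 12 cultures were autotrophic, grown in photobioreactors with added CO2, and the labels name no genotype other than HS2 and no treatment other than the medium. RNA was selected by poly(A) tail, sequenced as read pairs of 100 bases and assembled without a genome, so positions below run along the transcripts and carry no chromosome.

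Each library held between 9378066 and 11280635 counts. The 3 marine exponential libraries share a code stem in the labels, as do marine stationary replicates 1 and 2, while the series text calls all libraries biological replicates. These marine libraries differed from each other by a median of 0.0786 to 0.116 on the log2 scale per gene, against 0.198 to 0.361 between freshwater libraries of a group, and p-values rest on that spread. Marine stationary replicate 3 stood apart from replicates 1 and 2, by 0.458 and 0.46. Genes whose best hit was green plant or alga took 37.8 to 51.0% of the counts, and bacterial hits took 2.74 to 4.31%. The 27 genes for chlorophyll a-b binding proteins, which mark green chloroplasts, took 0.293 to 0.335% of the counts in marine exponential, 8.07 to 9.63% in freshwater exponential, 0.43 to 0.539% in marine stationary and 0.262 to 0.476% in freshwater stationary libraries.

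The gene holds more than nitrate reductase. Its 15 transcripts had nitrate reductase as best protein match in 12 cases and ferredoxin-nitrite reductase in 3. A reading frame for nitrate reductase was predicted on 12 transcripts and one for nitrite reductase on 14, and 12 transcripts carried both. On all 12 the frames lay on opposite strands, start facing start, 453 to 593 bases apart. The longest nitrate reductase frame had 943 codons and the longest nitrite reductase frame 684 codons. Of the 15 transcripts, 12 carried the molybdopterin-binding domain of nitrate reductase, 12 its dimerisation domain, and 10 each the cytochrome b5, FAD-binding and NAD-binding domains. No other assembled gene carried a frame for ferredoxin-nitrite reductase. The counts are given per assembled gene, which spans both frames, and the library kit does not mark strand. Reads from the nitrate reductase and the nitrite reductase stretches therefore cannot be told apart in these counts. Every level below is that of the pair.

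**Figure D1:**
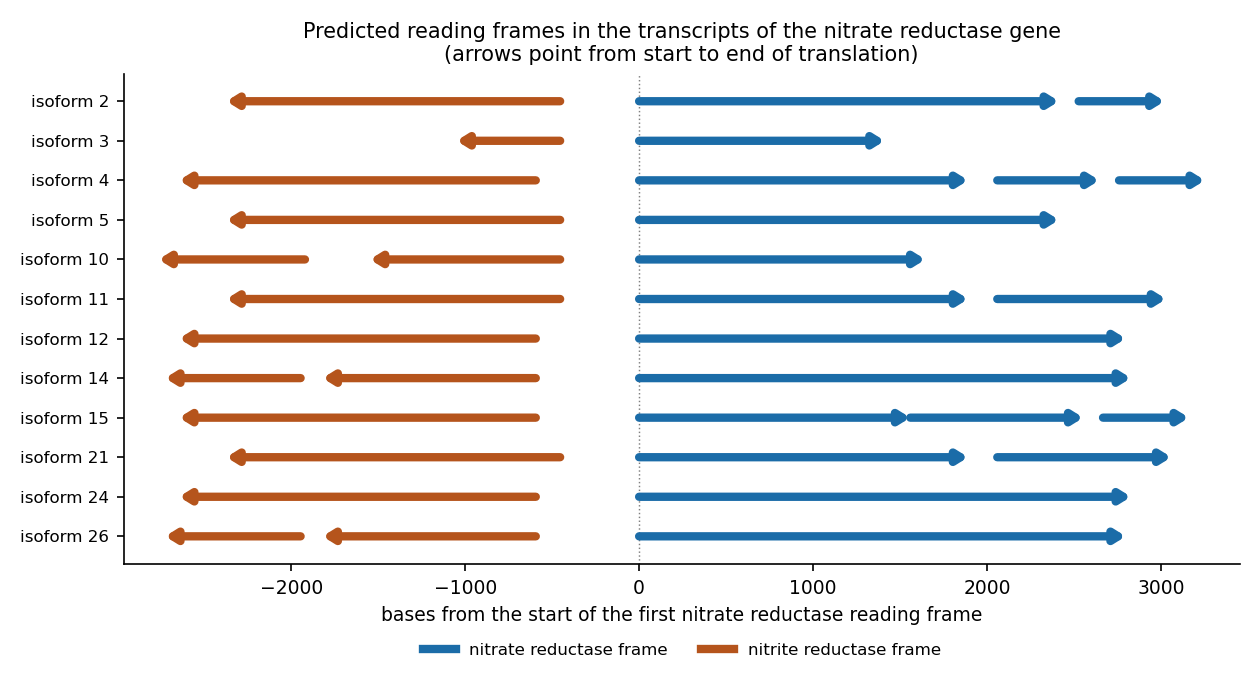
Predicted reading frames on the 12 transcripts that carry both enzymes, with the distance in bases from the start of the first nitrate reductase frame on the horizontal axis and 1 transcript per line. Nitrate reductase frames run to the right and nitrite reductase frames to the left of a gap of 453 to 593 bases.

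In exponential phase the nitrate reductase gene was among the most abundant transcripts in marine medium and far less abundant in freshwater. Its level, in CPM, a library's counts scaled to a common total after TMM normalisation, was 8445, 8959 and 8068 in marine exponential replicates 1, 2 and 3, against 258, 364 and 533 CPM in freshwater exponential replicates 1, 2 and 3. All marine values lay above all freshwater values, and the marine libraries spread less. The means were 8491 ± 447 CPM in marine and 384.9 ± 138 CPM in freshwater medium (SD, n = 3 each). The fitted log2 fold change of marine over freshwater was 4.46 with a standard error of 0.40, a 22.1-fold higher level in marine medium. The median over all 31491 genes tested was 0.0 on the same scale.

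The gene took 0.968, 1.04 and 0.93% of all counts in the marine exponential libraries and 0.0197, 0.0265 and 0.0395% in the freshwater exponential ones. By counts it ranked 3rd, 3rd and 5th of all genes in the marine exponential libraries, against 785th, 610th and 380th in freshwater exponential libraries. Ranked by CPM per kilobase among 6505 named genes, it stood between 25 and 31 in marine exponential and between 679 and 1183 in freshwater exponential libraries. Its 10099-base sequence spans both enzymes, so the rank per kilobase is that of the joint gene. In these bulk libraries fewer cells that hold a transcript and less of it per cell cannot be told apart.

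In stationary phase the gene stood at 2030, 2084 and 4932 CPM in marine replicates 1, 2 and 3, against 829.6, 1053 and 778.1 CPM in freshwater replicates 1, 2 and 3. The groups did not overlap, and replicate 3 lay well above the other marine libraries. The means were 3015 ± 1660 CPM in marine and 886.8 ± 146 CPM in freshwater medium (SD, n = 3 each). The log2 fold change of marine over freshwater was 1.77 with a standard error of 0.36, a 3.4-fold higher level in marine medium, where the median of all genes tested was 0.23. Without marine stationary replicate 3 the log2 fold change was 1.22. The gene took 0.273, 0.278 and 0.529% of all counts in the marine stationary libraries, and 0.0676, 0.0874 and 0.0655% in the freshwater stationary ones.

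Stationary levels were lower than exponential ones in marine medium and higher in freshwater. In marine medium the log2 fold change of stationary over exponential phase was -1.49 (standard error 0.36) and a median over all genes of 0.01. Without marine stationary replicate 3 it was -2.04. In freshwater it was 1.2 (standard error 0.35), a 2.3-fold change where the median of all genes was 0.27. No stationary library overlapped an exponential one of its medium. Hence the order of the group means was marine exponential, marine stationary, freshwater stationary and freshwater exponential, and none of these neighbours overlapped. The salt effect in stationary phase minus that in exponential phase was -2.70 (standard error 0.50).

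**Figure D2:**
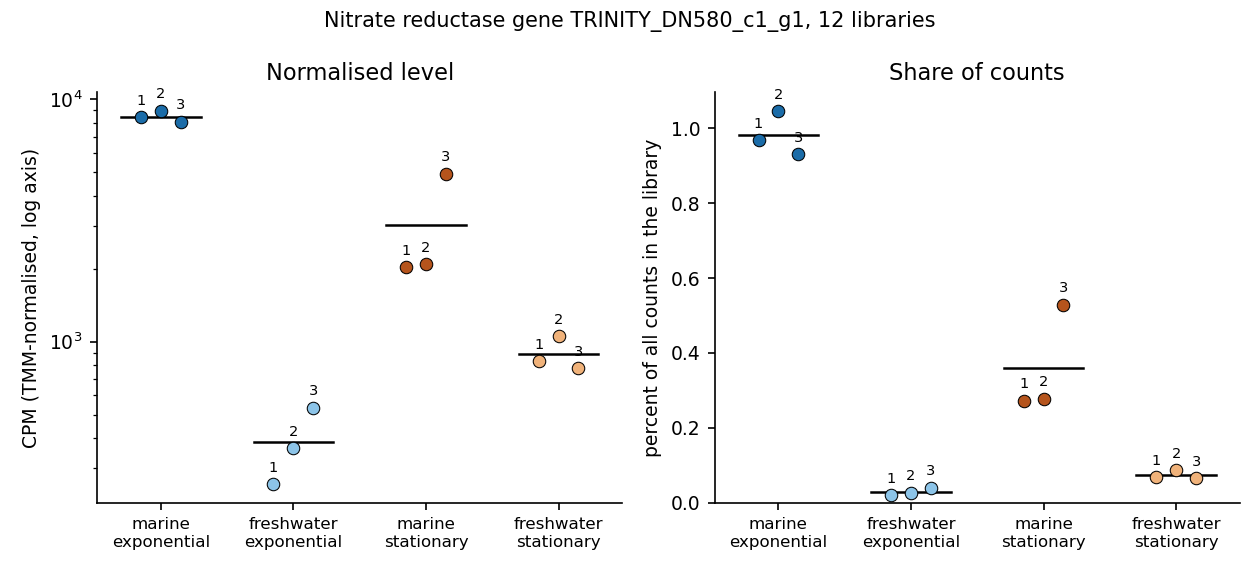
Level of the nitrate reductase gene in each of the 12 libraries, in CPM on a log axis (left) and as percent of all counts (right), with points for libraries, numbers for replicates and lines for group means. Marine exponential libraries sit between 8068 and 8959 CPM and freshwater exponential libraries between 258 and 533 CPM, and marine stationary replicate 3 sits at 4932 CPM above replicates 1 and 2.

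Set among the 3081 named genes that averaged a log2 CPM of 4 or more, the gene had the 17th highest log2 fold change for salt in exponential phase and the 144th highest in stationary phase. For phase it had the 44th lowest value in marine medium and the 271st highest in freshwater. Its difference of the salt effects was the 44th lowest. Over all 31491 genes tested, genes with low counts or no name included, 7083 had a higher log2 fold change for salt in exponential phase and 8823 in stationary phase. The authors' deposited table, scaled by their own method, lists group means of 83133 for marine exponential, 4072 for freshwater exponential, 26476 for marine stationary and 10298 for freshwater stationary cultures. The authors' deposited table gives log2 fold changes for salt of 4.35 in exponential and 1.36 in stationary phase, and -2.99 for their difference.

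Only a single gene belongs to the assembly component TRINITY_DN580_c1, so no gene shares it with nitrate reductase. Under the wider assembly cluster TRINITY_DN580, 17 other genes are listed, of which 15 had enough counts for the test, edgeR's quasi-likelihood test with Benjamini-Hochberg adjustment over all 31491 genes (FDR under 0.05). Of the other pair, TRINITY_DN580_c3_g2 had 0 counts and TRINITY_DN580_c3_g5 had 1023 counts over the 12 libraries. The tested genes are a mixed set, with a NIN-like protein, an exportin, copper-transporting ATPases, flavin-containing monooxygenases and genes with no protein match. In exponential phase 5 of the 15 were higher and 2 lower in marine medium, against 9.08% higher and 10.5% lower among all genes. In stationary phase 2 were higher and 4 lower, against 8.03% and 16.3% of all genes. Of the 7 exponential calls 3, and of the 6 stationary calls 2, held in all 12 fits that left out 1 library. The stationary calls of TRINITY_DN580_c0_g1, TRINITY_DN580_c0_g2 and TRINITY_DN580_c6_g1, all lower, held in 1, 2 and 2 of those fits and were lost with libraries scaled by their totals alone, where the first pair turned positive. With libraries of a shared stem summed, 0 of the exponential and 2 of the stationary calls were left. The medians of the 15 log2 fold changes were 0.40 and 0.0, against 0.0 and 0.23 over all genes.

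The NIN-like protein NLP1 (TRINITY_DN580_c2_g1) belongs to the RWP-RK factors, a family that binds nitrate-responsive promoters in plants. It had 189.7, 188.8 and 183.7 CPM in marine exponential, 122.7, 116.9 and 128.3 CPM in freshwater exponential libraries, 144.7, 142.9 and 125.3 CPM in marine stationary, and 74.2, 88.7 and 72.4 CPM in freshwater stationary libraries. Marine libraries lay above freshwater ones at both phases without overlap. It rose in marine medium in stationary phase (log2 fold change 0.81 ± 0.11 SE, FDR = 0.00033). In exponential phase the value was 0.61 ± 0.10 (FDR = 0.0019), a call held in 4 of the 12 fits that left out 1 library. The call was lost without any 1 of marine exponential replicates 1 to 3, freshwater exponential replicates 1 to 3 or freshwater stationary replicates 2 and 3, with values of 0.32 to 0.62 over the 12 fits. It fell in stationary against exponential phase in freshwater (-0.64 ± 0.10, FDR = 0.0024), where nitrate reductase was higher. That call was lost with library totals alone (-0.45, FDR = 0.0743).

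Exportin 1A (TRINITY_DN580_c7_g1), a carrier for export from the nucleus, was lower in marine medium at both phases (-0.72 ± 0.20, FDR = 0.027 in exponential and -1.87 ± 0.20, FDR = 0.00011 in stationary phase), the exponential call being lost with library totals alone or shared-stem libraries summed. It had 82.1, 80.0 and 124.4 CPM in marine stationary and 403.7, 293.9 and 346.8 CPM in freshwater stationary libraries. A monooxygenase gene (TRINITY_DN580_c0_g5) had 5.71, 6.48 and 1.94 CPM in marine exponential libraries and no counts in freshwater exponential ones, at least 34.4-fold higher against a floor of 3 counts over the group. Freshwater stationary libraries held 7.64, 6.8 and 15.2 CPM of it, so the gene was seen in freshwater too, and its salt call was lost with shared-stem libraries summed. A copper ATPase gene (TRINITY_DN580_c3_g4) averaged 10.2 ± 4.15 CPM in marine exponential and 17.0 ± 15.4 CPM in freshwater exponential libraries (SD, n = 3 each), with no counts in either stationary group, and was not called. Between phases, 0 of the 15 rose and 1 fell in marine cultures, against 0.305% and 1.37% of all genes, and 4 rose and 2 fell in freshwater, against 6.3% and 4.46%. For the difference of the salt effects 1 was called higher and 6 lower, against 2.45% and 4.86% of all genes, and 2 of those 7 calls held in all 12 fits that left out 1 library.

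A second gene, TRINITY_DN384_c0_g1, is also named nitrate reductase. Nitrate reductase frames were found on 32 of its 39 transcripts, which carry the molybdopterin-binding domain on 32 and the cytochrome b5 domain on 32. Its transcripts also carry frames for a sodium/proton antiporter (34 of 39) and a serine protease (28 of 39), so its counts join several proteins as well. The gene had 48.7, 53.9 and 50.2 CPM in marine exponential, 13.3, 12.6 and 11.9 CPM in freshwater exponential libraries, 46.1, 48.9 and 42.5 CPM in marine stationary, and 19.9, 19.0 and 17.3 CPM in freshwater stationary libraries. Marine libraries exceeded freshwater ones at both phases without overlap. The gene rose in marine medium by 2.01 ± 0.12 (FDR = 1.9e-06) in exponential and 1.29 ± 0.12 (FDR = 4.2e-05) in stationary phase. In marine medium its stationary level was not called different from its exponential level (-0.15 ± 0.12, FDR = 0.84).

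The pathway around nitrate reductase was followed through 6 lists of genes by name: nitrate uptake and reduction, molybdenum cofactor, ammonium assimilation, other nitrogen sources, control and partners of the enzyme, and reductant supply. They hold 159 other genes, of which 84 had enough counts. In exponential phase 28 were higher and 14 lower in marine medium, 50.0% called against 19.6% of all genes, at a median of -0.01. Leaving out 1 library gave 29 to 43 called, with 97 to 115 genes tested, and summing libraries of a shared stem gave 13 of 153 tested. With libraries scaled by their totals alone, which moved the median of all genes to 0.60, these counts were 37 and 8. In stationary phase 29 were higher and 21 lower, 59.5% against 24.3% of all genes, at a median of -0.05. With library totals alone the counts were 38 and 11, and the median of all genes was 0.81. The 50 stationary calls numbered 31 to 44 when 1 library was left out, 31 without any of freshwater stationary replicates 2 and 3 or marine stationary replicates 1 and 2, and 33 without freshwater stationary replicate 1. With shared-stem libraries summed they numbered 18, of 153 genes tested. Of 34 calls of named pathway and cluster genes for salt in exponential phase 25 held in all 12 fits that left out 1 library, and of 36 in stationary phase 20 held.

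Only 59 of the 159 had a best hit from a green plant or alga, and 47 of these were tested. Of the 47, 20 were higher and 6 lower in marine exponential and 18 higher and 11 lower in marine stationary cultures, against 9.08% higher and 10.5% lower of all genes in exponential and 8.03% and 16.3% in stationary phase. Of the 37 tested genes with a hit from elsewhere, 8 were higher and 8 lower in exponential phase, and 11 higher and 10 lower in stationary phase.

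Nitrate transporters came first along the path. Of the 6 tested genes of nitrate uptake and reduction other than TRINITY_DN580_c1_g1, 4 (66.7%) were higher and 0 lower in marine medium at both phases, at medians of 2.03 and 1.08, against 9.08% of all genes higher in exponential and 8.03% in stationary phase. Among the 4 was the transporter gene NRT2.2 (TRINITY_DN668_c1_g1). Its call held in 6 of the 12 fits that left out 1 library in exponential and in 2 in stationary phase. Both its calls were lost with shared-stem libraries summed. The transporter gene NRT2.6 (TRINITY_DN668_c1_g2), of the high-affinity family that carries nitrate through the plasma membrane, had 35.4, 27.5 and 31.8 CPM in marine exponential and 7.84, 7.78 and 6.19 CPM in freshwater exponential libraries. It rose by 2.12 ± 0.19 (FDR = 2.6e-05). In stationary phase its log2 fold change was 0.87 ± 0.19 (FDR = 0.0081), a call lost without marine stationary replicate 1 or freshwater stationary replicate 1, with a highest FDR of 0.0519, and lost with shared-stem libraries summed. A gene named as a peptide/nitrate transporter (TRINITY_DN702_c0_g1) rose by 3.35 ± 0.29 (FDR = 1.9e-05) in exponential and 3.98 ± 0.29 (FDR = 9.8e-06) in stationary phase, but 12 of its 25 transcripts carry frames for a zinc-induced facilitator, another kind of transporter.

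The gene with the highest level per kilobase among those with an NRT2 reading frame stood under another name. TRINITY_DN425_c0_g1, named after the kinase TOUSLED on 4 of its 33 transcripts, carried an NRT2 frame on 31, a formate dehydrogenase frame on 26 and an ARF GTPase-activating protein frame on 16. It had 10737, 10782 and 10759 CPM in marine exponential, 26.7, 26.1 and 40.6 CPM in freshwater exponential libraries, 3180, 3171 and 5546 CPM in marine stationary, and 136, 193.6 and 105.6 CPM in freshwater stationary libraries. The order of the groups was that of nitrate reductase, with no overlap between any of them. Its log2 fold changes were 8.43 ± 0.38 for salt in exponential phase, 4.77 ± 0.32 for salt in stationary phase, -1.44 ± 0.28 for phase in marine medium and 2.22 ± 0.29 for phase in freshwater. It is also among the genes chosen below for their likeness to nitrate reductase, so no test of it alone is given.

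Since names hide joined genes, the path was also read by frames, and 14 genes other than TRINITY_DN580_c1_g1 were found and tested. The frames searched were nitrate and nitrite reductase, NRT2, ammonium and molybdate transporters, glutamine synthetase, glutamate synthase, molybdenum cofactor synthesis and NIN-like proteins. Frames for glutamate dehydrogenase, carbamoyl-phosphate synthase, asparagine synthetase and the molybdenum cofactor sulfurase were left out. In marine medium, glutamate dehydrogenase A was called lower in stationary phase. Carbamoyl-phosphate synthase was called higher at both phases and the sulfurase higher in exponential phase. The list by frames was added after the files were seen. It includes TRINITY_DN425_c0_g1, which was also chosen by likeness to nitrate reductase, so the counts below are not independent of that choice. In exponential phase 13 of the 14 were higher and 0 lower in marine medium, at a median of 2.08, against 9.08% and 10.5% of all genes. In stationary phase 11 were higher and 1 lower, at a median of 1.15, against 8.03% and 16.3% of all genes. In the 13 genes that the authors placed in KEGG nitrogen metabolism, 8 were higher and 3 lower in exponential phase, and 7 higher and 5 lower in stationary phase.

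**Figure D3:**
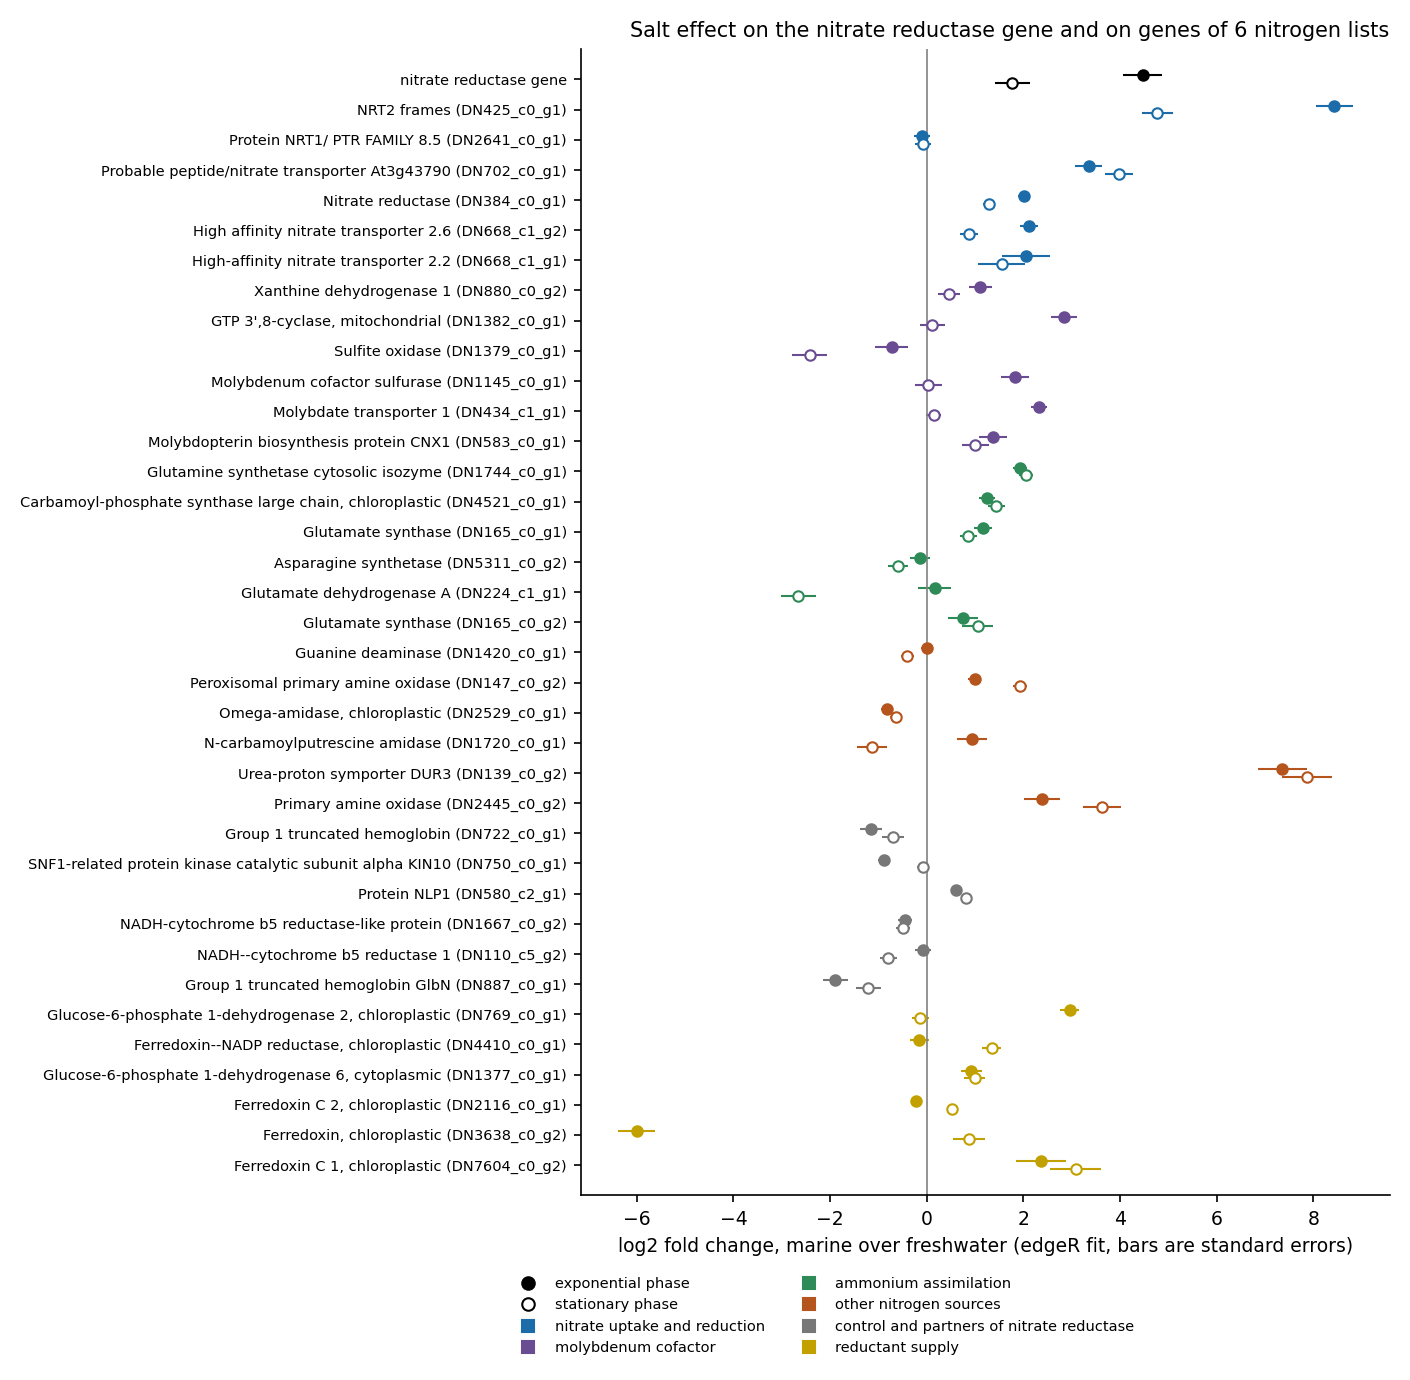
Log2 fold change of marine over freshwater for nitrate reductase, for the NRT2-carrying gene and for the most abundant genes of the 6 lists, with filled points for exponential and open points for stationary phase, bars for standard errors and colours for lists. Nitrate reductase sits at 4.46 and 1.77 and the NRT2-carrying gene at 8.43 and 4.77, and genes with no counts in a group are not drawn.

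Genes of molybdate uptake, the molybdenum cofactor and its enzymes moved in both directions. Of 15 tested genes 5 were higher and 2 lower in marine medium in exponential phase, 33.3% and 13.3% against 9.08% and 10.5% of all genes. In stationary phase 1 was higher and 4 lower, 6.67% and 26.7% against 8.03% and 16.3% of all genes. The medians were -0.73 and -1.48, so in exponential phase the median lay below 0 although more genes were called higher. Of the 15 genes, 5 had a group without counts in each comparison. With these set to the fold their floor allows, the medians stayed at -0.73 and -1.48, against 0.22 and 0.25 over all genes. Molybdate transporter 1 (TRINITY_DN434_c1_g1), which brings molybdate into the cell, had 250.1, 248.8 and 264.4 CPM in marine exponential, 43.6, 49.1 and 60.2 CPM in freshwater exponential libraries, 54.3, 55.5 and 65.0 CPM in marine stationary, and 61.0, 42.6 and 54.7 CPM in freshwater stationary libraries. Marine exponential libraries stood alone at the high level. The gene rose in marine medium in exponential phase (2.32 ± 0.16, FDR = 5.3e-06) and was not called in stationary phase (0.14 ± 0.15, FDR = 0.55). The difference between those effects was -2.18 ± 0.22 (FDR = 0.00027). Another gene named as a molybdate-anion transporter (TRINITY_DN5992_c0_g1), chosen after its values were seen, had no counts in any marine library, against a mean of 0.882 ± 0.66 CPM in freshwater exponential and 6.51 ± 4.58 CPM in freshwater stationary libraries (SD, n = 3 each). Its level was at least 10.8-fold lower in marine exponential and at least 89.4-fold lower in marine stationary cultures, against a floor of 3 counts over the group.

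GTP 3',8-cyclase (TRINITY_DN1382_c0_g1), the first enzyme of cofactor synthesis, had 494.8, 491.5 and 502.7 CPM in marine exponential and 47.6, 67.1 and 94.3 CPM in freshwater exponential libraries. It rose by 2.83 ± 0.27 (FDR = 3.8e-05), with 0.12 ± 0.25 (FDR = 0.80) in stationary phase and a difference of -2.71 ± 0.36 (FDR = 0.0013). Molybdenum cofactor sulfurase (TRINITY_DN1145_c0_g1), which activates xanthine dehydrogenase and aldehyde oxidase and not nitrate reductase in plants, rose in exponential phase by 1.82 ± 0.28 (FDR = 0.0011). Other genes named as this sulfurase did not all follow: TRINITY_DN1505_c0_g2, chosen after its values were seen, had 8.8, 2.02 and 3.12 CPM in marine exponential and 25.9, 21.8 and 28.6 CPM in freshwater exponential libraries. Sulfite oxidase (TRINITY_DN1379_c0_g1), another molybdenum enzyme, had 61.2, 60.9 and 143.2 CPM in marine stationary and 430.9, 542.0 and 444.4 CPM in freshwater stationary libraries, and fell in marine medium (-2.42 ± 0.36, FDR = 0.00091). With shared-stem libraries summed the call of the sulfurase and both calls of a difference in this group were lost.

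Glutamine synthetase and glutamate synthase are the main enzymes of ammonium assimilation. Of 6 tested genes named as glutamine synthetase 2 were higher in marine medium in exponential and 4 in stationary phase. Of these 6, TRINITY_DN39074_c0_g1, TRINITY_DN7154_c0_g1 and TRINITY_DN8534_c0_g1 had no counts in freshwater stationary libraries. They averaged 2.25, 5.43 and 3.27 CPM in marine stationary libraries, so a stationary call of any of them rests on a group without counts. TRINITY_DN39074_c0_g1 had no counts in freshwater exponential libraries either, against a mean of 1.25 CPM in marine exponential ones, so the same limit holds there. Of 3 genes named as glutamate synthase 1 and 2 were higher, and none of the 9 was called lower. The whole list had 19 tested genes, of which 7 were higher and 2 lower in exponential phase, 36.8% and 10.5% against 9.08% and 10.5% of all genes. In stationary phase 10 were higher and 4 lower, 52.6% and 21.1% against 8.03% and 16.3% of all genes. The medians were 0.75 and 0.86. With genes that had no counts in a group set to the fold their floor allows, the exponential median was 0.08, against 0.22 over all genes. Glutamine synthetase (TRINITY_DN1744_c0_g1), which joins ammonium to glutamate, had 1342, 1416 and 1400 CPM in marine exponential, 353.4, 375.6 and 362.4 CPM in freshwater exponential libraries, 1431, 1432 and 1004 CPM in marine stationary, and 270.9, 343.2 and 317.4 CPM in freshwater stationary libraries. It rose in marine medium by 1.93 ± 0.15 (FDR = 8.5e-06) in exponential and 2.05 ± 0.15 (FDR = 8e-06) in stationary phase, and those effects were not called different (0.12 ± 0.20). Glutamate synthase (TRINITY_DN165_c0_g1), which passes the amide nitrogen to 2-oxoglutarate, rose by 1.16 ± 0.18 (FDR = 0.0011) in exponential and 0.86 ± 0.18 (FDR = 0.0071) in stationary phase, calls that were lost with shared-stem libraries summed. The glutamate synthase gene TRINITY_DN165_c0_g2 stood at 0.75 ± 0.32 (FDR = 0.125) in exponential and 1.05 ± 0.32 (FDR = 0.039) in stationary phase, the second a call held in 4 of 12 fits that left out 1 library. It was lost without any of freshwater exponential replicates 1 to 3, freshwater stationary replicates 1 to 3 or marine stationary replicates 1 or 2, at 0.76 to 1.39 over the 12 fits. A type-3 glutamine synthetase gene (TRINITY_DN21004_c0_g1), chosen after its values were seen, had no counts in either marine group, 0, 0 and 2.74 CPM in freshwater exponential and 2.91, 1.73 and 0.421 CPM in freshwater stationary libraries, and was not called. Glutamate synthase 2 (TRINITY_DN6538_c0_g3), likewise chosen after its values were seen, had counts in freshwater stationary libraries alone (1.46, 1.48 and 1.26 CPM) and was not called.

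Ammonium transporter 1 member 3 (TRINITY_DN456_c1_g1), chosen after its values were seen, had 233.6, 234.7 and 223.0 CPM in marine exponential, 18.4, 14.9 and 13.2 CPM in freshwater exponential libraries, 1432, 1379 and 244.0 CPM in marine stationary, and 25.9, 22.1 and 24.8 CPM in freshwater stationary libraries. Marine libraries lay above freshwater ones throughout, and marine stationary replicate 3 lay near the marine exponential libraries. The transporter rose by 3.89 ± 0.54 (FDR = 0.00052) in exponential and 5.39 ± 0.58 (FDR = 0.00011) in stationary phase. A further pair with ammonium transporter frames, TRINITY_DN488_c2_g2 and TRINITY_DN488_c2_g1, is named after a sugar symporter. In exponential phase these rose by 2.87 ± 0.31 (FDR = 0.00011) and 4.66 ± 0.78 (FDR = 0.0018), and in stationary phase by 1.49 ± 0.30 (FDR = 0.0058) and 3.72 ± 0.75 (FDR = 0.0058). Glutamate dehydrogenase A (TRINITY_DN224_c1_g1), which links glutamate to 2-oxoglutarate, was lower in marine stationary (86.7, 88.3 and 199.0 CPM) than in freshwater stationary libraries (545.2, 1003 and 804.6 CPM), with a log2 fold change of -2.65 ± 0.37 (FDR = 0.00058).

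Other nitrogen sources gave mixed counts, with 6 of 15 tested genes higher and 4 lower in exponential phase and 5 higher and 5 lower in stationary phase. Of all genes, 9.08% were higher and 10.5% lower in exponential phase, and 8.03% higher and 16.3% lower in stationary phase. The urea symporter DUR3 (TRINITY_DN139_c0_g2) had 411.7, 419.2 and 404.1 CPM in marine exponential, 2.88, 2.59 and 2.02 CPM in freshwater exponential libraries, 876.7, 851.8 and 246.2 CPM in marine stationary, and 2.3, 2.84 and 3.27 CPM in freshwater stationary libraries. Marine and freshwater libraries lay far apart at both phases. DUR3 rose by 7.36 ± 0.50 (FDR = 4.2e-06) in exponential and 7.87 ± 0.51 (FDR = 4.4e-06) in stationary phase, with no call for phase in either medium. A primary amine oxidase (TRINITY_DN2445_c0_g2), of the family that frees ammonium from amines, rose by 2.39 ± 0.37 (FDR = 0.0011) in exponential and 3.63 ± 0.39 (FDR = 0.00011) in stationary phase; with shared-stem libraries summed the exponential call was lost.

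Among genes that control or partner nitrate reductase, 2 of 18 tested were higher and 5 lower in exponential phase, and 3 higher and 8 lower in stationary phase. The exponential shares were 11.1% higher, near the 9.08% of all genes, and 27.8% lower, against 10.5%. In stationary phase they were 16.7% higher and 44.4% lower, against 8.03% and 16.3% of all genes. The medians were -0.97 and -0.74. In exponential phase 8 and in stationary phase 9 of the 18 genes had a group without counts. With these set to the fold their floor allows, the medians were -1.06 and -0.74. Truncated hemoglobin GlbN (TRINITY_DN887_c0_g1), of a family that handles nitric oxide beside nitrate reductase in Chlamydomonas, had 40.3, 36.9 and 40.2 CPM in marine exponential and 128.0, 134.1 and 173.6 CPM in freshwater exponential libraries, and fell in marine medium (-1.89 ± 0.26, FDR = 0.00054). Other genes named as truncated hemoglobin did not all follow. Pearson's r of log2 CPM with nitrate reductase was -0.718 for GlbN and -0.687 for TRINITY_DN722_c0_g1. It was 0.895 for TRINITY_DN887_c0_g2, a gene chosen after its values were seen. The kinase subunit KIN10 (TRINITY_DN750_c0_g1), whose family phosphorylates nitrate reductase in plants, fell in exponential phase (-0.88 ± 0.13, FDR = 0.00059) and stood at -0.08 ± 0.12 (FDR = 0.70) in stationary phase. Both calls were lost with shared-stem libraries summed, and that of KIN10 with library totals alone.

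In reductant supply, 4 of 11 tested genes were higher and 1 lower in exponential phase, and 6 higher and 0 lower in stationary phase. The shares higher were 36.4% and 54.5%, against 9.08% and 8.03% of all genes. Glucose-6-phosphate dehydrogenase 2 (TRINITY_DN769_c0_g1), which makes NADPH from sugar in the plastid, had 1493, 1530 and 1503 CPM in marine exponential, 177.4, 198.2 and 208.5 CPM in freshwater exponential libraries, 308.6, 309.8 and 439.7 CPM in marine stationary, and 325.0, 492.7 and 340.2 CPM in freshwater stationary libraries. It rose in marine medium in exponential phase by 2.95 ± 0.19 (FDR = 3.5e-06), with -0.13 ± 0.18 (FDR = 0.66) in stationary phase. A chloroplast ferredoxin (TRINITY_DN3638_c0_g2), a carrier of photosynthetic electrons, was high only in freshwater exponential libraries: it had 22.3, 22.3 and 19.1 CPM in marine exponential and 1523, 1281 and 1268 CPM in freshwater exponential libraries. Marine stationary libraries held 13.2, 12.8 and 13.1 CPM and freshwater stationary libraries 6.55, 3.21 and 11.4 CPM. The ferredoxin fell in marine exponential cultures (-6.0 ± 0.39, FDR = 2.9e-06), as the chlorophyll a-b binding genes took a lower share of the counts in the same libraries, and the part of that shift in the other results was not tested.

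Between phases few pathway genes were called in marine medium, and a gene that was not called may still have changed. None of the 84 tested genes was called higher in stationary than in exponential phase and 3 were lower, 3.57% against 1.68% of all genes. Other settings tested more list genes: DESeq2 called 4 higher and 4 lower of 154 tested. At an FDR under 0.05 the count without marine stationary replicate 3 was 14 of 112 tested. The 3 were molybdate transporter 1 (-2.13 ± 0.16, FDR = 0.00033), glucose-6-phosphate dehydrogenase 2 (-2.10 ± 0.19, FDR = 0.00068) and GTP 3',8-cyclase (-1.58 ± 0.26, FDR = 0.015), beside -1.49 ± 0.36 for nitrate reductase. With shared-stem libraries summed 0 of the 84 were called. The call of the cyclase was lost without any of marine exponential replicates 1 to 3 or marine stationary replicates 1 or 2, at -1.88 to -1.41 over the 12 fits.

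In freshwater 10 of the 84 were higher and 10 lower in stationary phase, 23.8% against 10.8% of all genes. With library totals alone the counts were 12 and 6. Leaving out 1 library gave 13 to 26 called, 13 without freshwater stationary replicate 2 or 3, and summing shared-stem libraries gave 7. Of 21 calls of named genes, 11 held in all 12 fits that left out 1 library. Those called higher were 3 cluster neighbours, the monooxygenase TRINITY_DN580_c0_g5, the copper ATPase TRINITY_DN580_c3_g3 and the unmatched TRINITY_DN580_c6_g1. Of these 3, the call of the last was kept with shared-stem libraries summed. The rest of the 11 were called lower. In the cluster they were NLP1 and the unmatched TRINITY_DN580_c5_g1. In the lists they were carbamoyl-phosphate synthase (TRINITY_DN4521_c0_g1), KIN10, GlbN, ferredoxin-NADP reductase (TRINITY_DN4410_c0_g1), ferredoxin C 2 (TRINITY_DN2116_c0_g1) and the chloroplast ferredoxin (TRINITY_DN3638_c0_g2). The calls of NLP1, the synthase and ferredoxin C 2 were lost with library totals alone. NRT2.6 stood at 0.96 ± 0.19 (FDR = 0.0074) for phase in freshwater and was called in 4 of those 12 fits. For the difference of the salt effects, 7 of the 84 were higher and 10 lower, 20.2% against 7.32% of all genes. These 17 calls numbered 2 with shared-stem libraries summed and 8 to 24 when 1 library was left out, with 24 without marine stationary replicate 3 and 8 without replicate 1 or 2 of that group. The count was 9 to 11 without any of marine exponential replicates 1 to 3, freshwater exponential replicates 1 and 2 or freshwater stationary replicates 2 and 3.

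Across the 12 libraries 3080 named genes that averaged a log2 CPM of 4 or more were set against nitrate reductase by Pearson's r of log2 CPM, as a description, since libraries of a group share their condition. The r was at least 0.9 for 121 genes and at most -0.9 for 29, with a median of -0.01. The highest was 0.988, for a gene named coatomer subunit delta (TRINITY_DN431_c0_g2), a part of vesicle coats, which also carries frames for the siroheme synthase CysG on 4 of 9 transcripts and for an RNA methyltransferase on 9. It had 836.8, 831.3 and 761.2 CPM in marine exponential, 40.3, 42.3 and 59.0 CPM in freshwater exponential libraries, 199.2, 201.5 and 472.1 CPM in marine stationary, and 71.5, 71.7 and 66.5 CPM in freshwater stationary libraries. As with nitrate reductase, marine stationary replicate 3 lay above replicates 1 and 2.

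Next came the O-GlcNAc transferase SEC (TRINITY_DN627_c0_g1, r = 0.987) and cyanate hydratase (TRINITY_DN653_c0_g1, r = 0.984), which splits cyanate to ammonium and carbon dioxide. Cyanate hydratase had 504.8, 479.6 and 520.9 CPM in marine exponential, 6.4, 6.82 and 15.3 CPM in freshwater exponential libraries, 142.6, 137.8 and 180.9 CPM in marine stationary, and 19.0, 29.4 and 28.4 CPM in freshwater stationary libraries. SEC spanned a far narrower range, 228.0 to 259.4 CPM in marine exponential and 117.6 to 134.5 CPM in freshwater exponential libraries, since r does not measure the size of a change. The other 5 were the phosphatase IMPL1 (TRINITY_DN2230_c0_g1, r = 0.974), the NRT2-carrying TRINITY_DN425_c0_g1 (r = 0.971), RNA helicase RH42 (TRINITY_DN657_c1_g1, r = 0.97), a vacuolar sorting protein (TRINITY_DN943_c3_g1, r = 0.97) and exoribonuclease 1 (TRINITY_DN262_c0_g1, r = 0.97). Of the 47 transcripts of the exoribonuclease gene, 47 also carry a frame for 6-phosphogluconate dehydrogenase. The SEC gene carries an SEC frame on 17 of its 22 transcripts and an ABC transporter G frame on 19. The RH42 gene carries an RH42 frame on 2 of its 6 transcripts and a poly(A)-binding protein frame on 4.

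The lowest r belonged to aquaporin-1 (TRINITY_DN1723_c0_g2, r = -0.969), a water channel, with 37.9, 36.9 and 38.7 CPM in marine exponential and 452.6, 493.3 and 414.0 CPM in freshwater exponential libraries. A UVB-sensitive root protein homologue (TRINITY_DN45_c0_g1, r = -0.954) and a PGR protein (TRINITY_DN1056_c0_g1, r = -0.948) followed. With Spearman's rho in place of Pearson's r, 4 of the 8 highest genes were among the 10 that ranked 8th or better with ties, and without marine stationary replicate 3, 5 of the 8 were kept. For comparison, the cytosolic glutamine synthetase TRINITY_DN1744_c0_g1 had an r of 0.847 with nitrate reductase and ranked 262nd of the 3080. The chloroplastic glutamine synthetase TRINITY_DN3132_c0_g1 had an r of 0.14 and ranked 1366th. Other tested genes of that name, at lower counts, ranged from -0.426 (TRINITY_DN21004_c0_g1) to 0.759 (TRINITY_DN39074_c0_g1).

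**Figure D4:**
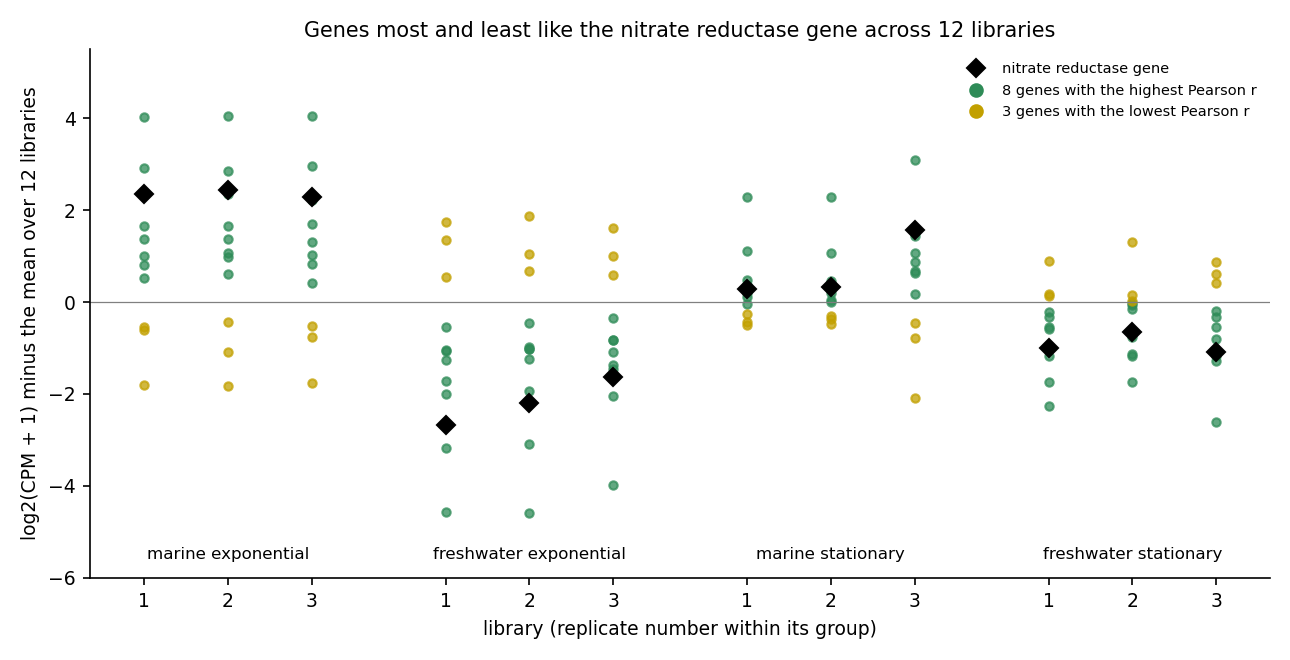
Log2(CPM + 1) minus the mean over the 12 libraries for nitrate reductase (diamonds), the 8 genes with the highest Pearson r (green) and the 3 with the lowest (yellow), by library. The 8 genes lie above their own means in marine exponential and below them in freshwater exponential libraries, and the 3 genes do the opposite.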

How the data were processed

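Reads were assembled with Trinity and quantified per assembled gene with RSEM 1.3.2 after alignment with Bowtie, per the submitters' processing notes and the series text; the deposited values are expected counts, not normalised, and were rounded to whole numbers here. Per the file headers, the authors' deposited comparison table holds a group mean signal (SVCD-normalised counts) and log2 fold changes, made with DESeq2 1.20.0. Names, E-values, lengths and reading frames come from the authors' Blast2GO and Trinotate tables. Genes were filtered with filterByExpr and scaled by TMM, and 5 comparisons were fitted over 12 libraries with edgeR 4.0.16 in R 4.3.3. Nitrate reductase was given no test, nor were the genes chosen by likeness, except that TRINITY_DN425_c0_g1 is counted in the list by reading frame. SE is the log2 fold change divided by the root of its F statistic.

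The script was tested on simulated data. The alternatives were DESeq2 1.42.0, library totals alone, TMM from genes of both media, no filter, only the compared groups, a replicate block, shared-stem libraries summed, and leaving out each library.

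Named genes were nitrate reductase, the TRINITY_DN580 genes, other genes named nitrate reductase, the 6 most abundant tested genes of each list (hits with an E-value of at most 1e-10), and the 8 highest and 3 lowest r (prior count 2). The 14 genes by reading frame and the KEGG list were added after the files were seen, and list patterns were narrowed by excluding unrelated names. The gene and the lists were chosen with earlier results of these data known. Depth limits precision for low genes, and intervals cover the spread between libraries only.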

Additional observations from a re-analysis of the deposited data

Results flagged for a closer look

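Of 54 named pathway and cluster genes, 20 had a salt effect that was called different between the phases. The call was by edgeR's quasi-likelihood test of the difference itself, stationary minus exponential, at an FDR under 0.05 over all 31491 genes. Of all genes tested, 7.32% were called for this difference. List members among the 54 were chosen mainly as the most abundant tested genes of their list, where depth limits precision less. The 20 of 54 therefore cannot be set against that share as a result for the pathway. Of the 20 calls, 10 held in all 12 fits that left out 1 library. With shared-stem libraries summed 2 held, those of glucose-6-phosphate dehydrogenase 2 and the chloroplast ferredoxin. The values are log2 differences.

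Among the calls that held in all 12 fits, glutamate dehydrogenase A stood at -2.82, GTP 3',8-cyclase at -2.71, molybdate transporter 1 at -2.18 and glucose-6-phosphate dehydrogenase 2 at -3.08. Positive differences were 0.94 for a peroxisomal amine oxidase (TRINITY_DN147_c0_g2), 1.5 for ferredoxin-NADP reductase (TRINITY_DN4410_c0_g1), 0.74 for ferredoxin C 2 (TRINITY_DN2116_c0_g1) and 6.88 for the chloroplast ferredoxin (TRINITY_DN3638_c0_g2). In the cluster of nitrate reductase they were -9.78 for the monooxygenase TRINITY_DN580_c0_g5, which rests on a freshwater exponential group without counts, and 1.09 for TRINITY_DN580_c5_g1, which has no match.

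The other 10 calls were lost in some of the 12 fits. KIN10 (0.8) was called in 10 of them, and not without marine stationary replicate 1 or 2, nor with library totals alone. The sulfurase TRINITY_DN1145_c0_g1 (-1.79) was called in 4, and N-carbamoylputrescine amidase (TRINITY_DN1720_c0_g1, -2.07) in 3. NRT2.6 (-1.25) was called in 2 and was lost in 12 alternatives in all. The second nitrate reductase gene, TRINITY_DN384_c0_g1 (-0.72), was called in 1 and was lost in 16 alternatives, DESeq2, library totals alone, no filter and the replicate block among them. In the cluster, the copper ATPase TRINITY_DN580_c3_g3 (-1.14) and the unmatched TRINITY_DN580_c6_g1 (-1.85) were called in 3 of the 12 fits, the monooxygenase TRINITY_DN580_c0_g1 (-0.91) in 2, and the exportin TRINITY_DN580_c7_g1 (-1.15) and the unmatched TRINITY_DN580_c0_g2 (-0.84) in 1.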

How the results depend on the processing

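The direction of all 5 nitrate reductase fold changes was the same under every alternative run. Scaled by library totals alone, the salt effect in exponential phase was 5.10. Leaving out 1 library at a time gave 3.96 to 4.49 for salt in exponential and 1.22 to 2.00 for salt in stationary phase, -2.04 to -1.24 for phase in marine medium, 0.75 to 1.26 for phase in freshwater and -3.25 to -2.18 for the difference. Its mean share among counts of green hits was 2.19% in marine exponential, 0.0595% in freshwater exponential, 0.889% in marine stationary and 0.191% in freshwater stationary libraries.

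Pathway genes called numbered 42, 50, 3, 20 and 17 in the order salt in exponential phase, salt in stationary phase, phase in marine medium, phase in freshwater and difference. They numbered 13, 18, 0, 7 and 2 of 153 tested after summing libraries of a shared stem, where marine exponential cultures become a lone sample assumed to vary like the rest. By reading frame, with TRINITY_DN425_c0_g1 included, they were 13, 12, 3, 5 and 5, and in the KEGG list 11, 12, 1, 6 and 6. With green hits only, 26 and 29 were called for salt. Without a filter the stationary salt count was 32 and the difference 11, of 154 tested. For phase in marine medium DESeq2 called 8 of 154 tested and a fit of the compared groups 5 of 59 tested. Leaving out 1 library, with 97 to 115 genes tested in place of 84, gave 29 to 43, 31 to 44, 2 to 14, 13 to 26 and 8 to 24. The cluster neighbours called in at least 1 comparison were 10, or 4 with stems summed and 6 to 10 leaving out 1 library. Of the 8 genes most like nitrate reductase, Spearman kept 4 with ties counted, and leaving out marine stationary replicate 3 kept 5.

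Under library totals alone, 4 stationary salt effects called lower turned positive: TRINITY_DN580_c0_g1 (0.077), TRINITY_DN580_c0_g2 (0.037), TRINITY_DN1667_c0_g2 (0.11) and TRINITY_DN1420_c0_g1 (0.18). The cause was not tested beyond the shift of the median.

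Same-numbered libraries correlated at -0.119 to 0.163 in their deviations from group means. Marine libraries of a shared stem differ little from each other, so these values cannot exclude a pairing. The replicate block gave nitrate reductase 4.54, 1.66, -1.59, 1.28 and -2.88, and list counts of 37, 35, 4, 19 and 14. Of 115 calls of named genes, 37 held in every alternative and 68 in all 12 fits that left out 1 library, while 75 were lost with shared-stem libraries summed and 4 reversed.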
